A study of Homo sapiens with 27 samples.

Results

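TP63 and TP73, the genes of p63 and p73 in the p53 family of transcription factors, were followed through every library of a study of Compound Kushen Injection (CKI). CKI is a plant extract mixture that is used beside chemotherapy. Both members were found by their Entrez IDs, 8626 for TP63 and 7161 for TP73, and they are 2 of the 24566 rows of the count table. RNA was sequenced from A431 cells, an established epidermoid carcinoma line, and from MDA-MB-231 cells, an established breast adenocarcinoma line, in 27 libraries (9 groups of 3 replicates). All cells were harvested after 48 h, with CKI at 1 mg/ml and 5-fluorouracil (5-FU) at 10 µg/ml. The A431 groups were untreated cells, a vehicle control of a composition not given in the sources used here, CKI, doxorubicin, and CKI plus doxorubicin. The MDA-MB-231 groups were untreated cells, CKI, 5-FU, and CKI plus 5-FU, so that each line met its own chemotherapy drug. Doxorubicin is an anthracycline that damages DNA, and 5-FU is a pyrimidine analogue that interferes with nucleotide and RNA metabolism. Each line is a single established line, and nothing in the labels says that replicates came from separate cultures, so the p-values measure the spread between these libraries, which may be technical.

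p63, p73 and p53 share a DNA-binding domain and can bind the same response elements. p63 is the master regulator of basal and squamous epithelium, where it maintains keratins, integrins and desmosomal genes. p73 is needed for multiciliated cells and parts of the nervous system, and it can be induced by E2F1 and activated by ABL1 after DNA damage. Each gene has an upstream promoter, whose products carry the full transactivation domain (TA forms), and an internal promoter, whose products lack it (ΔN forms) and can oppose the TA forms. Counts per gene cannot separate these forms.

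On GRCh37, TP63 runs along the forward strand of chromosome 3 from 189349178 to 189615065, and TP73 along the forward strand of chromosome 1 from 3569080 to 3652765. The annotation lists 14 transcripts for each gene. The 250 bases before each of the upstream and internal starts are shown because they set the pair of promoters of each gene side by side. In TP63 5 of 12 coding transcripts begin within 500 bases of the upstream start and 7 of 12 within 500 bases of the internal one. In TP73 these numbers are 5 of 11 and 3 of 11. The windows were read from the GRCh37 genome, forward strand, 5′ to 3′. They are chr3:189348928-189349177 and chr3:189507340-189507589 for TP63, and chr1:3568830-3569079 and chr1:3606986-3607235 for TP73. Capitals mark E2F words.
TP63 upstream: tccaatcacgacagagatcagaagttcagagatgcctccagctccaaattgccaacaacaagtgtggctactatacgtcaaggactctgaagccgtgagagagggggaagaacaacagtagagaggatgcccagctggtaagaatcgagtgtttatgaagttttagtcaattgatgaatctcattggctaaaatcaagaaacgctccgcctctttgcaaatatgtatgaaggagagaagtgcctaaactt
TP63 internal: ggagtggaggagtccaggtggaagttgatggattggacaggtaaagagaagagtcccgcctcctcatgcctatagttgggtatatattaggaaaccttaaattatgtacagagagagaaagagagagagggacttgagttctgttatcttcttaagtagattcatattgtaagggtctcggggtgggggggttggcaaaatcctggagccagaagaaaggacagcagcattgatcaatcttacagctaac
TP73 upstream: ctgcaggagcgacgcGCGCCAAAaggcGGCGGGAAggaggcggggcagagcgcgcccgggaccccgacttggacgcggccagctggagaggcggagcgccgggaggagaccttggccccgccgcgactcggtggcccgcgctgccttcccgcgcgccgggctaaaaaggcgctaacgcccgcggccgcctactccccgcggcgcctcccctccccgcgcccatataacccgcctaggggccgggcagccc
TP73 internal: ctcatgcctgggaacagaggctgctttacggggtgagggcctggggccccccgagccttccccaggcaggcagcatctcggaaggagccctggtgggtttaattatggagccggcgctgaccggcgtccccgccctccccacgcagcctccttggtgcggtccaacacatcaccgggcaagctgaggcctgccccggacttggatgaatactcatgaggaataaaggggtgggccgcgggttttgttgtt

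The windows differed most in base composition. GC content was 44% before the upstream TP63 start and 45.2% before the internal one, and 77.2% and 64.0% before the upstream and internal TP73 starts. The E2F words searched on both strands were TTTCCCGC, TTTCGCGC, TTTGCCGC, TTTGGCGC and TTCCCGCC, the last of which overlaps the first when shifted by 1 base. The upstream TP73 window held 2 of them, read on the reverse strand, at 235 to 228 and at 223 to 216 bases before the start, and the other windows held 0. At least 1 such word was present in 4.76% of 35116 RefSeq promoter windows of the same length (GRCh38.p14). These matches are a description of letters and not of binding.

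Before the treatments were compared, the libraries were checked against each other and against the markers of each line. Total counts were 17757206 to 21756536 in A431 and 19871048 to 22809339 in MDA-MB-231. The chi-square per degree of freedom between replicates was 1.84 to 5.03 in most pairs, but 64.5 and 74.5 between untreated MDA-MB-231 replicate 1 and the other two, and 8.98 to 25.3 within the A431 vehicle group. Tests of TP63 and TP73 that use these libraries are therefore also given without untreated MDA-MB-231 replicate 1, or with the range found when the vehicle libraries were left out in turn. Counts over the gene lists are given without the former, while those against the vehicle control use all of its libraries. The 8 squamous markers summed to 8366 to 11186 CPM (a library's counts scaled to a common depth with TMM factors) in A431 and to 351 to 530 CPM in MDA-MB-231, where KRT14 did not exceed 2.30 CPM. Of the squamous markers, SFN had 74.7 to 262 CPM and EGFR 152 to 363 CPM in MDA-MB-231. The 6 mesenchymal markers summed to 2522 to 4409 CPM in MDA-MB-231 and to 830 to 1943 CPM in A431. The mesenchymal regulator ZEB1 lay between 58.6 and 103 CPM in MDA-MB-231 and at 0.231 to 1.05 CPM in A431. VIM and AXL were also higher in every MDA-MB-231 library, but CD44, CAV1 and SPARC overlapped between the lines. CD44 had 650 to 905 CPM in MDA-MB-231 and 522 to 1180 CPM in A431. Of 8 markers of blood, endothelial, stromal and liver cells, 7 were in the table and summed to 0.559 to 1.25 CPM in MDA-MB-231 and to 10.3 to 33.8 CPM in A431, where CDH5 alone accounted for 5.88 to 29.2 CPM.

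The first question is how much of each gene the cells held without drug. TP63 was a high gene in A431 and near the limit of detection in MDA-MB-231. Untreated A431 replicates 1, 2 and 3 had 3666, 4054 and 3844 TP63 counts, or 219, 223 and 238 CPM (227 ± 10.0, SD, n = 3). Untreated MDA-MB-231 replicates had 11, 16 and 20 counts, or 0.574, 0.737 and 0.983 CPM (0.765 ± 0.206, SD, n = 3). The lines were far apart in every library. A call here needs an adjusted p under 0.05 (edgeR quasi-likelihood test, Benjamini-Hochberg over all genes tested) and an absolute log2 fold change over 1. TP63 was 303-fold higher in A431, with a log2 fold change of 8.25 (SE 0.13, adjusted p = 1.2e-14), which was 8.09 without untreated MDA-MB-231 replicate 1. Between the lines 42.9% of 14848 genes were called, 22.5% higher in A431 and 20.4% lower.

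TP73 showed the opposite order. Its counts were 93, 82 and 72 in untreated A431, or 5.56, 4.51 and 4.46 CPM (4.84 ± 0.621, SD, n = 3), and 119, 309 and 273 in untreated MDA-MB-231, or 6.21, 14.2 and 13.4 CPM (11.3 ± 4.42, SD, n = 3). All MDA-MB-231 libraries were above all A431 libraries, with replicate 1 the lowest of its group. The log2 fold change of A431 against MDA-MB-231 was -1.17 (SE 0.24, adjusted p = 0.00060, edgeR). It was -1.46 without MDA-MB-231 replicate 1 (adjusted p = 8.7e-12) and -0.98 without replicate 2, which is under the size threshold. With the A431 vehicle libraries as the A431 side it was -2.002, and -2.40 to -1.84 with 1 of them left out.

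Levels of the 2 genes can be set side by side per kilobase of exon, which is 7479 bp in TP63 and 6767 bp in TP73. In untreated A431 the level of TP63 was 30.3 ± 1.34 CPM per kilobase and that of TP73 was 0.715 ± 0.0918 (SD, n = 3). In untreated MDA-MB-231 they were 0.102 ± 0.0275 and 1.67 ± 0.653 CPM per kilobase (SD, n = 3). TP63 was thus the more abundant member in A431 and TP73 in MDA-MB-231.

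**Figure D1:**
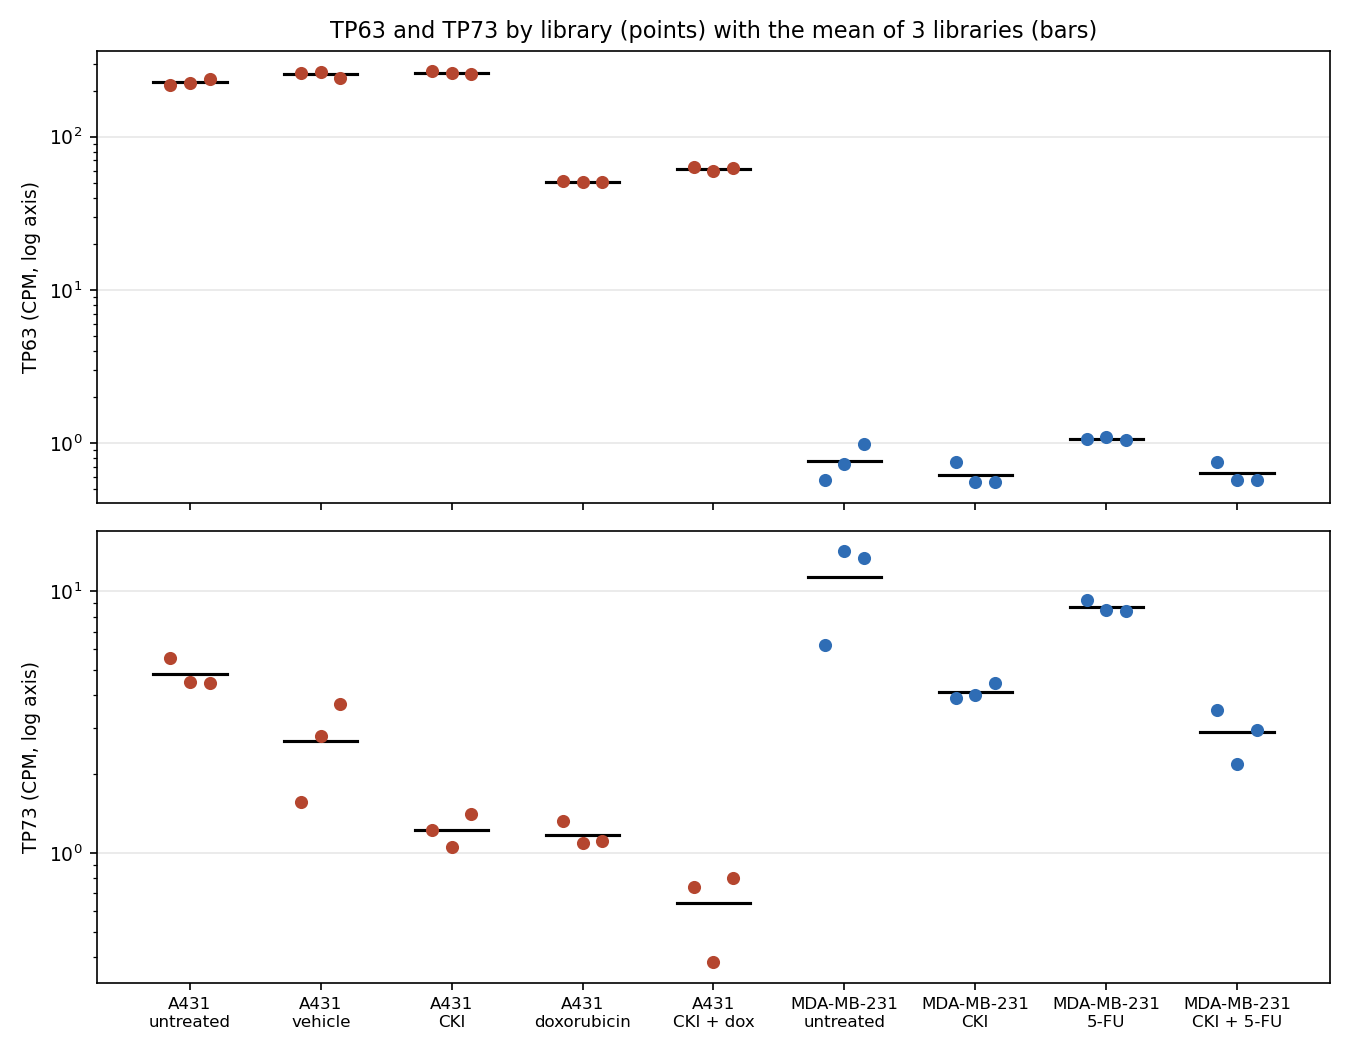
TP63 (upper panel) and TP73 (lower panel) in CPM on log axes in the 9 groups, with a point for each of 3 libraries and a bar for their mean, A431 in red and MDA-MB-231 in blue. TP63 sits above 200 CPM in A431 cells without doxorubicin, at 50.3 to 63.4 CPM with it, and at or below 1.10 CPM in MDA-MB-231, and TP73 is lowest in A431 with CKI plus doxorubicin.

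Over all 9 groups the mean TP63 level ran from A431 with CKI (261 CPM), vehicle (256), untreated (227), CKI plus doxorubicin (61.8) and doxorubicin (50.8) to MDA-MB-231 with 5-FU (1.07), untreated (0.765), CKI plus 5-FU (0.635) and CKI (0.624). Of these neighbours the libraries overlapped between CKI and vehicle in A431, and among untreated, CKI plus 5-FU and CKI in MDA-MB-231. For TP73 the order was MDA-MB-231 untreated (11.3 CPM), MDA-MB-231 with 5-FU (8.72), A431 untreated (4.84), MDA-MB-231 with CKI (4.11), MDA-MB-231 with CKI plus 5-FU (2.89), A431 vehicle (2.69), A431 with CKI (1.23), A431 with doxorubicin (1.17) and A431 with both (0.641). Overlapping neighbours were untreated and 5-FU in MDA-MB-231, CKI plus 5-FU in MDA-MB-231 and vehicle in A431, and CKI and doxorubicin in A431.

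The next question is what CKI alone did in A431 cells. It lowered TP73 and left TP63 under the thresholds. TP73 had 24, 20 and 25 counts with CKI, or 1.22, 1.05 and 1.41 CPM (1.23 ± 0.177, SD, n = 3), below every untreated library. TP73 fell by 2.07 on the log2 scale (SE 0.25, adjusted p = 1.2e-07, edgeR). In this comparison 22.4% of 15881 genes were called, 10.4% downward. Against the vehicle control the log2 fold change of TP73 was -1.24 (adjusted p = 0.00033), and without vehicle replicate 3 it was -0.95, under the size threshold. TP63 had 5241, 4933 and 4576 counts with CKI, or 267, 260 and 257 CPM (261 ± 5.08, SD, n = 3). All CKI libraries were above all untreated ones, but the log2 fold change was 0.11 (SE 0.055, adjusted p = 0.074), and it turned to -0.07 against the vehicle control (-0.12 to -0.05 with 1 vehicle library left out) and to -0.10 with offsets for GC content and transcript length. In bulk RNA, fewer cells that express a gene and less of its RNA per cell cannot be told apart. Of 5 tested markers of other cells, CD79A and COL3A1 rose by 1.45 and 2.39 with CKI and CDH5 fell by 1.20. CD79A went from 0.376 to 1.09 CPM, and COL3A1 did not exceed 1.89 CPM in any A431 library, so the folds of both rest on few counts. The 7 markers in the table summed to 20.9 to 24.5 CPM in untreated cells and to 10.3 to 13.2 CPM with CKI, where PTPRC and MS4A1 had no counts, and their part in the result was not tested.

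The vehicle control was itself compared with untreated A431 cells, where 2.54% of genes were called. TP73 had 27, 55 and 68 counts, or 1.56, 2.79 and 3.71 CPM (2.69 ± 1.08, SD, n = 3), again below every untreated library. The log2 fold change was -0.83 (SE 0.22, adjusted p = 0.0040, edgeR), under the size threshold. The vehicle libraries of TP73 differed widely among themselves, and leaving them out in turn gave -0.57 without replicate 1, -0.85 without replicate 2 and -1.12 without replicate 3, the last of which passed both thresholds. TP63 had 262, 266 and 241 CPM (256 ± 13.3, SD, n = 3) and a log2 fold change of 0.19 (SE 0.055, adjusted p = 0.0091), which was 0.17 to 0.23 with 1 vehicle library left out and turned to -0.07 with the GC and length offsets. TP73 was thus lower in the vehicle libraries than in untreated cells, so its changes with CKI and doxorubicin were smaller when set against the vehicle control.

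Doxorubicin lowered both genes in A431 cells. TP63 had 1047, 1014 and 1014 counts, or 51.2, 50.3 and 50.9 CPM (50.8 ± 0.475, SD, n = 3), far below every untreated library. TP63 was 4.54-fold lower than in untreated cells, with a log2 fold change of -2.18 (SE 0.059, adjusted p = 5.1e-19, edgeR). In this comparison 37.3% of genes were called, 14.3% downward. TP73 had 27, 22 and 22 counts, or 1.32, 1.09 and 1.11 CPM (1.17 ± 0.129, SD, n = 3), also below every untreated library. TP73 fell by 2.06 on the log2 scale (SE 0.25, adjusted p = 9.0e-08). Against the vehicle control the log2 fold changes were -2.37 for TP63 and -1.23 for TP73 (adjusted p = 0.00023). With 1 vehicle library left out TP63 ranged from -2.43 to -2.36, and TP73 without vehicle replicate 3 was -0.95, under the size threshold. When library totals alone set the scale, the median log2 fold change of all genes moved from 0.02 to 0.36, and the members stood at -1.84 and -1.72. Of 5 tested markers of other cells 4 rose with doxorubicin and 1 fell. PTPRC and ALB had no counts in untreated A431 and 1.32 and 0.578 CPM with doxorubicin, CD79A and COL3A1 rose by 1.49 and 5.28 on the log2 scale, and CDH5 fell from 21.9 to 6.46 CPM. CD79A did not exceed 1.79 CPM and COL3A1 did not exceed 1.89 CPM in any A431 library, so the folds of both rest on few counts. The 7 markers in the table summed to 10.8 to 13.0 CPM with doxorubicin and to 32.4 to 33.8 CPM with both agents, where 4 rose and 0 fell. The part of such cells in the result was not tested.

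CKI plus doxorubicin asks whether the combination differs from each agent alone. TP63 stayed near its doxorubicin level, and TP73 was at its lowest. TP63 had 63.4, 59.5 and 62.4 CPM (61.8 ± 2.03, SD, n = 3) with both agents, above every library with doxorubicin alone. It fell by 1.88 on the log2 scale against untreated cells (SE 0.058, adjusted p = 5.1e-18, 35.5% of genes called and 13.8% downward) and stood 3.99-fold lower than with CKI alone (SE 0.058 on the log2 scale, adjusted p = 4.6e-18, 25.7% called and 9.06% downward). Against doxorubicin alone its log2 fold change was 0.30 (SE 0.060, adjusted p = 0.00013), under the size threshold, where 14.9% of genes were called in either direction.

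TP73 had 16, 8 and 16 counts with both agents, or 0.742, 0.382 and 0.800 CPM (0.641 ± 0.227, SD, n = 3). These libraries lay below all those of either single agent. TP73 fell by 2.91 on the log2 scale against untreated cells (SE 0.28, adjusted p = 1.9e-09, edgeR), or 7.53-fold. Against doxorubicin alone the log2 fold change was -0.85 (SE 0.35, adjusted p = 0.038) and against CKI alone -0.84 (SE 0.35, adjusted p = 0.034), both under the size threshold, and without combination replicate 3 they were -1.03 and -1.04.

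The interaction term tests whether the combined change differs from the sum of both single changes on the log2 scale. For TP73 it was 1.22 (SE 0.45, adjusted p = 0.024, edgeR), so the combined fall was smaller than the sum of the single falls. The interaction was called for 19.5% of genes, 8.56% upward. It was 0.39 (adjusted p = 0.48) with the vehicle control as the reference, and 0.10 to 0.66 with 1 vehicle library left out. Without A431 CKI replicate 2 it was 1.12 (adjusted p = 0.050), without combination replicate 1 it was 1.09 (adjusted p = 0.081) and without combination replicate 3 it was 1.04 (adjusted p = 0.096). For TP63 the interaction was 0.19 (SE 0.081, adjusted p = 0.052). With the vehicle control as the reference and 1 vehicle library left out, that of TP63 was 0.36 to 0.42 (adjusted p = 2.1e-05 to 0.0014, edgeR), under the size threshold.

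**Figure D2:**
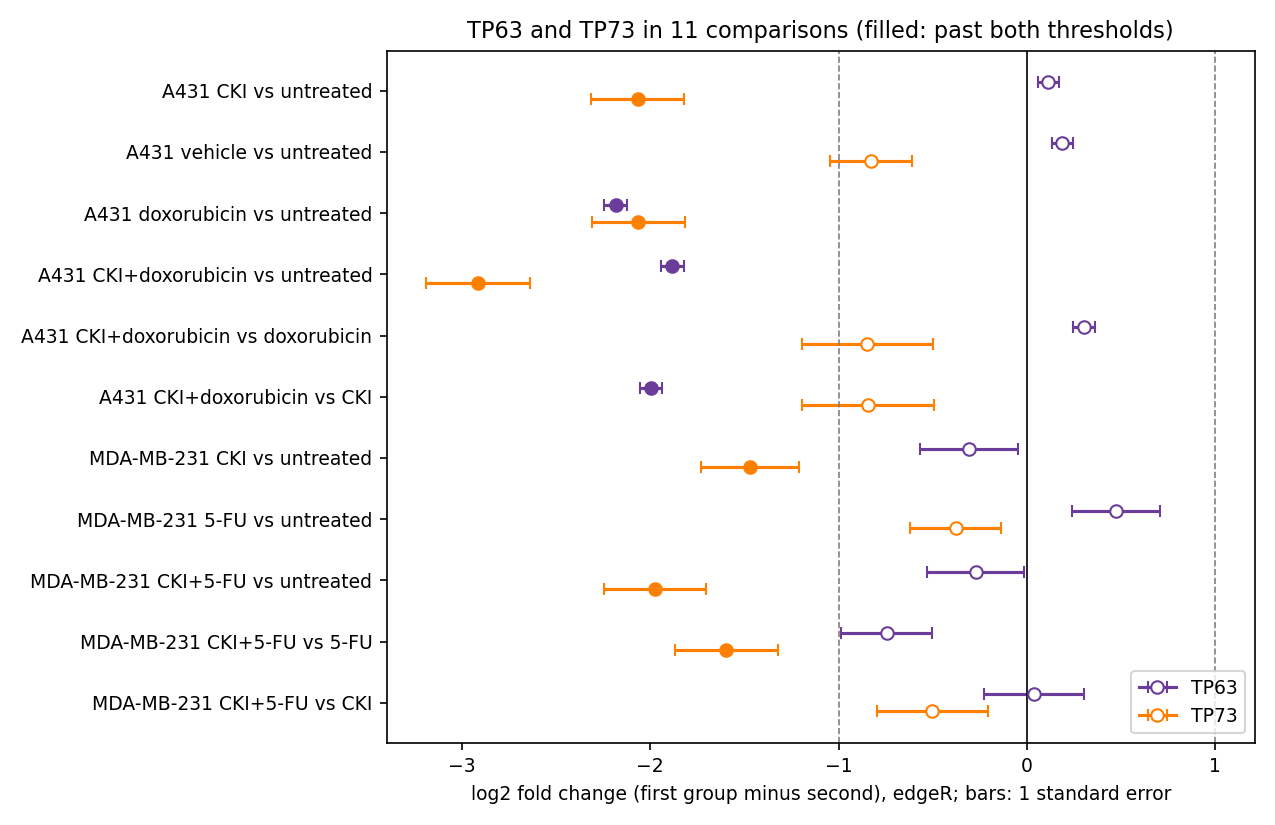
Log2 fold changes of TP63 (purple) and TP73 (orange) in 11 comparisons within the lines, with bars of 1 standard error from edgeR. Filled points pass both thresholds, dashed lines mark a log2 fold change of 1 in either direction, and all filled points lie to the left of 0.

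In MDA-MB-231 cells TP73 was also lower with CKI than in untreated cells. This line had no vehicle group, so an effect of CKI and an effect of a vehicle cannot be told apart here. TP73 had 77, 86 and 88 counts, or 3.90, 4.004 and 4.44 CPM (4.11 ± 0.287, SD, n = 3), below every untreated library. It fell by 1.47 on the log2 scale (SE 0.26, adjusted p = 0.00098, edgeR), and its log2 fold change was -1.76 without untreated replicate 1 (adjusted p = 2.0e-11). In this comparison 5.96% of 13999 genes were called, 2.21% downward. TP63 had 15, 12 and 11 counts, or 0.759, 0.559 and 0.555 CPM (0.624 ± 0.117, SD, n = 3), which overlapped the untreated libraries. Its log2 fold change was -0.31 (SE 0.26, adjusted p = 0.45), and -0.47 without untreated replicate 1. At 11 to 23 counts a library, TP63 changes of this size were not detectable at this depth.

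The response of TP73 to CKI was then compared between the lines. The difference of the CKI effects, A431 minus MDA-MB-231, was -0.59 on the log2 scale (SE 0.41, adjusted p = 0.26, edgeR) and did not pass the test, which called 18.5% of genes. With the vehicle control as the A431 reference it was 0.24 (0.077 to 0.64 with 1 vehicle library left out), and without untreated MDA-MB-231 replicate 1 it was -0.31. For TP63 the difference was 0.43 (SE 0.23, adjusted p = 0.25), and 0.58 without that replicate. A fall of TP73 with CKI against untreated cells was therefore measured in each line, and a difference between the lines was not shown.

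5-FU alone moved neither gene past the thresholds, and 13.3% of genes were called in that comparison. TP73 had 201, 178 and 177 counts, or 9.25, 8.48 and 8.44 CPM (8.72 ± 0.455, SD, n = 3), between the lowest untreated library and the other two. Its log2 fold change was -0.38 (SE 0.24, adjusted p = 0.20, edgeR), and -0.67 (adjusted p = 1.5e-05) without untreated replicate 1, still under the size threshold. TP63 had 23, 23 and 22 counts, or 1.06, 1.10 and 1.05 CPM (1.07 ± 0.0251, SD, n = 3). These were above every untreated library, with a log2 fold change of 0.47 (SE 0.23, adjusted p = 0.12), or 0.31 without untreated replicate 1.

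With CKI plus 5-FU, TP73 had 75, 49 and 62 counts, or 3.53, 2.18 and 2.96 CPM (2.89 ± 0.677, SD, n = 3). All of them lay below every library of the other MDA-MB-231 groups. TP73 fell by 1.97 on the log2 scale against untreated cells (SE 0.27, adjusted p = 9.2e-05, edgeR, 9.04% of genes called and 4.76% downward), which was -2.26 without untreated replicate 1. It fell by 1.60 against 5-FU alone (SE 0.28, adjusted p = 0.00049, 9.77% called and 4.51% downward). Against CKI alone its log2 fold change was -0.50 (SE 0.30, adjusted p = 0.19), where 3.81% of genes were called. TP63 had 0.752, 0.578 and 0.573 CPM (0.635 ± 0.102, SD, n = 3), below every library with 5-FU alone. Its log2 fold change was -0.75 against 5-FU (SE 0.24, adjusted p = 0.021), under the size threshold, -0.27 against untreated cells (SE 0.26, adjusted p = 0.46, or -0.43 without untreated replicate 1) and 0.04 against CKI (SE 0.27, adjusted p = 0.93). The interaction of CKI and 5-FU was -0.12 for TP73 (SE 0.38, adjusted p = 0.83) and -0.44 for TP63 (SE 0.36, adjusted p = 0.44), with 6.84% of genes called. Without untreated replicate 1 these were 0.16 and -0.28. Counting the comparisons between groups within each line, which share libraries, TP73 fell in 3 of 6 in A431 and 3 of 5 in MDA-MB-231, and TP63 fell in 3 of 6 and 0 of 5. In 1 of those 5, CKI plus 5-FU against 5-FU, TP63 had an unadjusted p under 0.05 (edgeR), and it was called in 0 of them by DESeq2.

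Reads from the antisense gene TP73-AS1 could be counted with TP73, since the libraries are unstranded and the 2 genes share 633 bp of exon. TP73-AS1 lies on the reverse strand of chromosome 1 from 3652075 to 3663937. It had 10.0 to 26.1 CPM over the 27 libraries, and it was called in none of the comparisons. With CKI its log2 fold change was 0.17 in A431 (SE 0.12, adjusted p = 0.21, edgeR) and -0.09 in MDA-MB-231 (SE 0.15, adjusted p = 0.65, or -0.25 without untreated replicate 1), and with doxorubicin it was 0.31 (SE 0.12, adjusted p = 0.020). It was higher where TP73 was lower in the doxorubicin libraries, and lower in the combination, where its log2 fold change against doxorubicin alone was -0.78 (SE 0.12, adjusted p = 5.9e-06). The interaction of CKI and doxorubicin on TP73-AS1 was -0.95 (SE 0.17, adjusted p = 4.7e-05, edgeR), under the size threshold, where that on TP73 was 1.22. A part of shared reads in the TP73 counts was not tested. WRAP73, which overlaps the start of TP73 with 0 shared exonic bases, was also called in none. In A431 its log2 fold change was -0.45 with CKI (SE 0.065, adjusted p = 2.1e-06, edgeR) and -0.92 with doxorubicin (SE 0.067, adjusted p = 2.1e-11). The interaction of CKI and doxorubicin on WRAP73 was 0.93 (SE 0.094, adjusted p = 1.7e-08). These values were under the size threshold. With CKI in MDA-MB-231 WRAP73 stood at 0.06 (SE 0.075, adjusted p = 0.60). No gene in the table shares exonic bases with TP63. MIR944 lies within TP63 with 0 shared exonic bases.

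**Figure D3:**
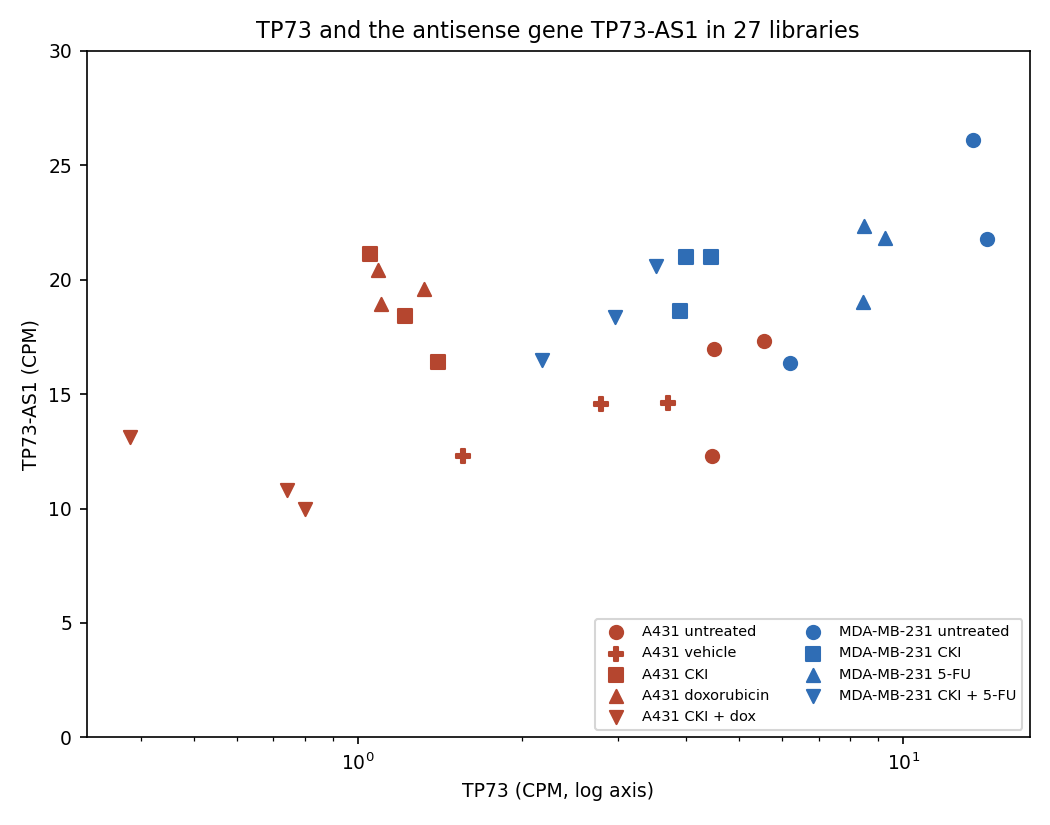
TP73 in CPM on a log axis against TP73-AS1 in CPM on a linear axis, 1 point for each of 27 libraries, with colours for the line and shapes for the treatment. TP73 spans 0.382 to 14.2 CPM while TP73-AS1 stays between 10.0 and 26.1 CPM, and the A431 CKI and doxorubicin libraries lie to the left of untreated A431 at TP73-AS1 levels of 16.4 to 21.1 CPM.

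Among 25 regulators and partners of p63 and p73, 3 rose and 5 fell with CKI in A431, beside 12% of all genes upward and 10.4% downward. EGR1, an immediate early transcription factor, rose by 3.18 on the log2 scale from 121 to 1170 CPM, and HIPK2, a kinase that acts on p53 family proteins, rose by 1.06. Neither rise was called with the vehicle control as reference. Against untreated cells E2F1, which can induce TP73, fell by 2.06 from 105 to 26.8 CPM (SE 0.071, adjusted p = 6.5e-17, edgeR), and E2F2 fell by 2.18. With doxorubicin 0 rose and 3 fell, beside 23% and 14.3% of all genes, among them HIPK2 (-1.57) and the receptor NOTCH1 (-1.49). E2F1 had a log2 fold change of 0.74 with doxorubicin (SE 0.065, adjusted p = 4.1e-10), on the other side of 0 from that of TP73. In MDA-MB-231 with CKI 0 rose and 1 fell, beside 3.76% and 2.21% of all genes, which was E2F2 with a log2 fold change of -1.46, whereas E2F1 stood at -0.01 (SE 0.098, adjusted p = 0.94). Without untreated replicate 1 these values were -1.61 and -0.14. With both agents in A431 the log2 fold change of E2F1 was -1.66 against untreated cells (adjusted p = 8.9e-16, edgeR) and -2.41 against doxorubicin alone (adjusted p = 1.0e-17), where those of TP73 were -2.91 and -0.85. With CKI plus 5-FU in MDA-MB-231 that of E2F1 was -0.05 against untreated cells and -0.19 against 5-FU. Of the 6 comparisons in which TP73 fell, E2F1 therefore fell in 2, both of them A431 cells with CKI against untreated cells, with or without doxorubicin. A part of E2F1 in the fall of TP73 was not tested. The difference of the E2F1 effects of CKI between the lines was -2.04 (SE 0.14, adjusted p = 1.6e-07), and -1.92 without untreated MDA-MB-231 replicate 1. With 5-FU 0 of the regulators rose and 1 fell, beside 6.01% and 7.31% of all genes. The counts in MDA-MB-231 were the same numbers without untreated replicate 1. The median log2 fold change of the list was -0.14, 0.02, -0.12 and 0.11 in these 4 comparisons, beside 0.00, 0.02, -0.01 and 0.00 for all genes tested. With the vehicle control as reference, 0 of the list rose and 4 fell with CKI in A431, beside 1795 and 1305 of all 15881 genes. With library totals alone 5 rose and 5 fell, beside 2238 and 1322 of all genes.

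The basal epithelial genes that p63 is known to control followed the lines and, in part, doxorubicin. Between the untreated lines 20 of 26 were higher in A431 and 2 lower, beside 22.5% and 20.4% of all genes, with a median log2 fold change of 4.06 against 0.09. Without MDA-MB-231 replicate 1 the counts were again 20 and 2. With CKI in A431, 1 of 26 rose and 2 fell, beside 12% and 10.4% of all genes, with a median of 0.30 against 0.00. ZNF750, a differentiation factor of keratinocytes, rose by 2.34, the Notch ligand JAG2 fell by 1.90 and the adhesion protein FERMT1 fell by 1.08. With doxorubicin 1 rose and 11 fell, beside 23% and 14.3% of all genes, with a median of -0.56 against 0.02. With library totals alone 9 fell, beside 1313 of all 15881 genes, and against the vehicle control 9 fell, beside 2346. JAG2 fell by 4.48 from 347 to 15.8 CPM and the hemidesmosomal integrin ITGB4 fell by 3.12 from 998 to 117 CPM, while the basal keratin KRT14 rose by 1.28 from 701 to 1730 CPM. So TP63 and 11 of the 26 genes fell together with doxorubicin, and KRT14 went the other way.

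In MDA-MB-231, where TP63 was scarce, 19 of these 26 genes passed the filter on low counts. With CKI 2 rose and 2 fell, beside 3.76% and 2.21% of all genes, with a median of 0.15 against -0.01, among them the collagen COL17A1 (1.07) upward, and FERMT1 (-1.63) and the calcium-binding protein S100A2 (-1.20) downward. Without untreated replicate 1 only FERMT1 fell (-1.65), and S100A2 stood at -0.88. With 5-FU 4 rose and 5 fell, the same counts without that replicate, beside 6.01% and 7.31% of all genes and with a median of 0.08 against 0.00, among them TRIM29 (1.36) upward, and ITGB4 (-1.98) and ITGA3 (-1.40), another integrin, downward. KRT5, the partner of KRT14, was near 0 in all these groups, with 0.0819 CPM in untreated cells, 0.867 with CKI and 1.99 with 5-FU.

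Of 25 stress response genes shared by the p53 family, 8 rose and 2 fell with CKI in A431, beside 12% and 10.4% of all genes, with a median log2 fold change of 0.53 against 0.00. CDKN1A, the cell cycle inhibitor p21, rose by 2.55 from 83.4 to 519 CPM, and ZMAT3, an RNA-binding protein, rose by 1.92. DDB2, which recognises damaged DNA, fell by 1.54, and the mitochondrial reductase FDXR fell by 1.27. With doxorubicin 9 rose and 2 fell, beside 23% and 14.3% of all genes, which also rose more often than they fell, with a median of 0.45 against 0.02, among them CDKN1A (1.72) and the apoptosis activator PMAIP1 (1.68) upward, and PHLDA3 (-1.85) and DDB2 (-1.23) downward. Against the vehicle control 6 of the 25 rose with CKI and 3 with doxorubicin, beside 1795 and 3771 of all 15881 genes tested. In MDA-MB-231 24 were tested. With CKI 0 rose and 0 fell by edgeR and by DESeq2, beside 3.76% and 2.21% of all genes. In edgeR 10 of the 24 had an unadjusted p under 0.05, while 36.2% of all genes had an adjusted p under 0.05 at any size. The share of all genes at the unadjusted cut is not given here. When untreated replicate 1 was left out, 2 fell. With 5-FU 2 rose and 1 fell, the same counts without that replicate, beside 6.01% and 7.31% of all genes, namely CDKN1A (1.54) and the nuclease AEN (1.25) upward and CDKN1C downward (-1.08). The rise of CDKN1A stood beside a fall of TP73 with CKI and doxorubicin in A431, and beside no called change of TP73 with 5-FU. With CKI in MDA-MB-231 TP73 fell and CDKN1A was not called. Its log2 fold change there was 0.28 without untreated replicate 1 (SE 0.042, adjusted p = 3.1e-06, edgeR), under the size threshold.

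Of 8 genes of multiciliated cells, a cell type that needs p73, 7 were tested in A431 and 6 in MDA-MB-231. With CKI in A431 0 rose and 2 fell, beside 12% and 10.4% of all genes, with a median log2 fold change of -0.42 against 0.00, namely the transcription factor MYB (-1.65, from 6.89 to 2.31 CPM) and the regulator MCIDAS (-1.28, from 4.86 to 2.14 CPM). With doxorubicin 2 rose and 1 fell, beside 23% and 14.3% of all genes, with a median of -0.30 against 0.02. FOXJ1, the master regulator of motile cilia, rose by 1.33 from 1.01 to 2.58 CPM, and MYB fell by 1.14, a fall that did not pass with library totals alone. GMNC had no counts in untreated A431 and 0.745 CPM with doxorubicin, so no fold is given. In MDA-MB-231 0 of 6 rose and 0 fell with either agent by edgeR and by DESeq2. Of all genes 3.76% rose and 2.21% fell with CKI, and 6.01% and 7.31% with 5-FU. In edgeR 2 of the 6 with CKI and 0 with 5-FU had an unadjusted p under 0.05. Of all genes 36.2% and 57.1% had an adjusted p under 0.05 at any size, which is a stricter cut. The share of all genes at the unadjusted cut is not given here, so these list counts have no background beside them. The medians were -0.19 and -0.03 against -0.01 and 0.00, and the counts of rising and falling genes were again 0 without untreated replicate 1.

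**Figure D4:**
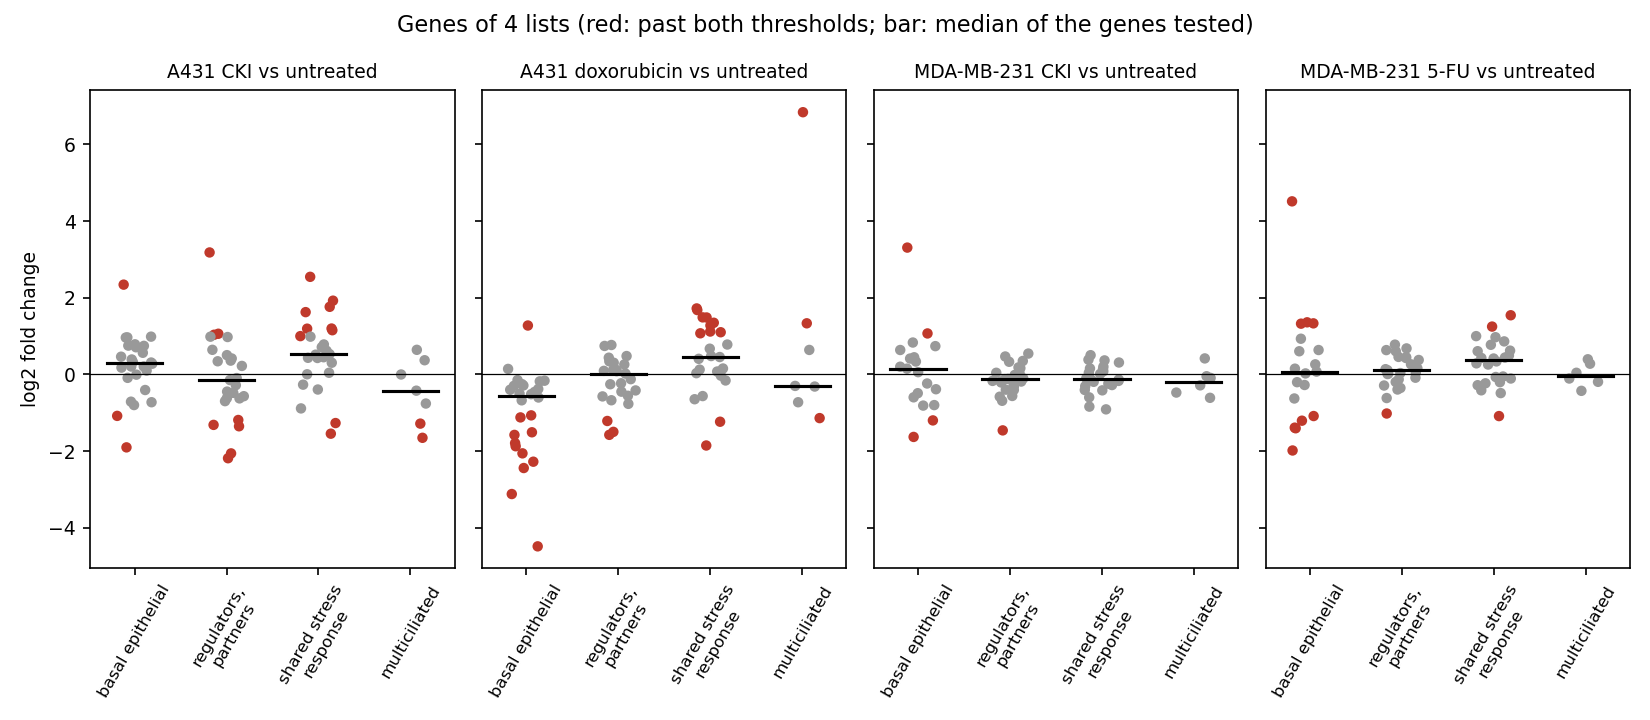
Log2 fold changes of the tested genes of 4 lists in 4 comparisons with untreated cells, with red points for genes past both thresholds and a bar for the list's median. The basal epithelial genes reach furthest down with doxorubicin in A431, where 11 of 26 fell, and the highest points for GMNC and KRT5 stand for genes at or near 0 CPM in untreated cells.

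The genes whose log2 CPM was most like that of each member were ranked by Pearson's r. Over 27 libraries, among 16669 genes, IL20RB (r = 0.997), ABO, FUOM, CALML3 and TMPRSS4 (r = 0.994) were most like TP63, where the points share the split between the lines. Over the 15 A431 libraries, among 15881 genes, they were SOX7 (r = 0.996), ITGA6 (r = 0.995), UBE2G1, BACE2 and FHOD3 (r = 0.995), where the points share the split by doxorubicin. ITGA6, the partner of ITGB4 in hemidesmosomes, is the only one of them in the basal list. For TP73 the closest over 27 libraries were KDM2B (r = 0.948), PFN1, FLOT2, ECHS1 and PHF19 (r = 0.937). In A431 they were CIZ1 (r = 0.972), RPL28, WRNIP1, CPSF1 and SORBS3 (r = 0.970). These are descriptions over libraries that share treatments, and none was tested.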

How the data were processed

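RNA from 27 libraries of A431 and MDA-MB-231 cells was sequenced as unstranded read pairs, grouped by their labels. Per the labels the submitters used Trim Galore 0.3.7, STAR 2.5.3a, hg19 and edgeR. The deposited values are raw read counts per gene, for which the counting tool and annotation are not given in the sources used here. The paper read beside these data covers CKI and its single herbs, and its thresholds were used. Of 24566 rows, 24422 matched a symbol in RefSeq (GRCh38.p14, names only), and 1597 had no count. Gene models came from GENCODE on GRCh37. The counts of all replicate pairs differed by more than sampling noise.

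Counts were tested with edgeR 4.0.16 in R 4.3.3 (TMM, filterByExpr, glmQLFit, glmQLFTest) with all groups of a line in 1 fit, or, for comparisons between lines, with the CKI and untreated groups of A431 and MDA-MB-231. Calls needed a Benjamini-Hochberg adjusted p under 0.05 over all genes tested and an absolute log2 fold change over 1. CPM used TMM over all libraries, and log2 CPM a prior count of 2. The fits were tested on simulated data. The members and lists were chosen with earlier results of these data known. From each list were named, in CKI, doxorubicin and 5-FU against untreated cells, up to 2 called genes of largest change in each direction whose libraries did not overlap. E2F1 in other comparisons and PTPRC, ALB and CDH5 were named after their values were seen. Alternatives were DESeq2 1.42.0, RLE factors, library size alone, other filters on low counts, the compared groups alone, the vehicle control, a replicate block and leaving out each replicate. Offsets for GC content and transcript length (lowess span 0.3) and the counts of list genes under other settings were added after the data were seen. No doxorubicin dose is given, since the labels list several without assigning them.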

Additional observations from a re-analysis of the deposited data

Results flagged for a closer look

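The interaction of CKI and doxorubicin on TP73 in A431 cells differed from 0 by its own test, with a log2 value of 1.22 (SE 0.45, adjusted p = 0.024, edgeR), so the effect of CKI on TP73 differed between cells with and without doxorubicin. TP73 fell from 4.84 ± 0.621 to 1.23 ± 0.177 CPM with CKI (SD, n = 3), and stood at 1.17 ± 0.129 CPM with doxorubicin and 0.641 ± 0.227 CPM with both, where the libraries held 8 to 16 counts. The call was lost with the vehicle control as reference and without 3 of the single libraries, and the cause was not tested.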

How the results depend on the processing

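Under the alternatives that keep all replicates, 232 fold changes of TP63 and TP73 kept their direction and side of the thresholds, 6 turned and 1 lost its call. With offsets for GC content and transcript length, TP63 turned to -0.10 (A431 CKI, adjusted p = 0.037, edgeR), -0.070 (A431 vehicle) and -0.11 (MDA-MB-231 CKI plus 5-FU against CKI), and the TP73 interaction of CKI and 5-FU to 0.021. With the vehicle control as reference, TP63 with CKI turned to -0.073, the TP73 difference between lines to 0.24, and the TP73 interaction of CKI and doxorubicin fell under the thresholds at 0.39. The causes were not tested. Leaving out single replicates, the TP73 log2 values ranged from 1.04 to 1.48 for the interaction in A431, -1.03 to -0.58 for the combination against doxorubicin, -1.04 to -0.59 against CKI, -1.12 to -0.57 for vehicle, -1.46 to -0.98 between the lines, and -0.33 to 0.16 for the interaction in MDA-MB-231. TP63 ranged from -0.10 to 0.20 for CKI plus 5-FU against CKI.

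The number of genes called over the whole table moved by over 1.5 times in these cases. Without a filter it was 6171 for the combination against CKI in A431, beside 4077 as reported. With at least 10 counts in every sample, where fewer genes were tested, it was 174 for vehicle, 3197 for doxorubicin, 3100 for the combination, 1431 for it against doxorubicin and 1837 against CKI in A431, 504 for CKI, 833 for CKI plus 5-FU, 903 for it against 5-FU and 340 against CKI in MDA-MB-231, and 3631 between the lines. Beside these the reported counts were 404, 5925, 5633, 2369 and 4077, then 835, 1266, 1368 and 533, and 6367. With the offsets it was 247 for vehicle and 348 for CKI plus 5-FU against CKI, and with the compared groups alone 263 for vehicle. TP73 in A431 has no value under the stricter filter, since a library held 8 counts. Library totals alone moved the upward share of calls with doxorubicin from 61.6% to 78.3%, with the combination from 61.2% to 77.5% (against CKI from 64.7% to 76.7%), for the interaction in A431 from 43.98% to 33.0%, with 5-FU from 45.1% to 59.8%, and with CKI plus 5-FU from 47.4% to 62.7% (against CKI from 33.2% to 45.8%). The stricter filter moved it to 50.6% with doxorubicin, 48.8% with the combination, 44.04% for that against CKI, and from 41.1% to 59.2% for vehicle, which stood at 60.7% with the offsets.

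Replicate numbers did not pair the samples, since the deviations of same-numbered libraries correlated at -0.20 to 0.07, and the replicate block changed no call of TP63 or TP73. With the block TP73 stood at -2.07 in A431 with CKI. Depth limits TP63 in MDA-MB-231, at 11 to 23 counts a library, and TP73 in A431 with both agents.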
